A study of Mus musculus with 4 samples.

Results

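The unfolded protein response and the integrated stress response were followed through 10 genes, all of which were found among the 28250 genes with a deposited expression value: the chaperones Hspa5 and Hsp90b1 of the endoplasmic reticulum (ER), the ER degradation factor Herpud1, the transcription factors Xbp1, Atf4 and Ddit3 (CHOP), and Trib3, Chac1, Asns and Ddit4, which are induced through ATF4, CHOP or other stress pathways. They were taken by symbol, as ER chaperones and genes of the ATF4 and CHOP pathway. The cells were TBV2, a feeder-dependent mouse embryonic stem cell (ESC) line of the 129/SvP strain, treated in the presence of LIF. The paper does not say whether feeder cells were present in the sequenced cultures. The comparison was between 2 libraries of cells given solvent and 2 of cells given MS-275 at 5 µM, both harvested after 24 h. MS-275 is an inhibitor of class I histone deacetylases. The labels do not say whether the libraries of a group came from separate cultures. The p-values therefore speak of these libraries only, and the spread behind them was estimated with help from other genes.

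When unfolded proteins collect in the ER, the sensors IRE1 (Ern1), ATF6 and PERK (Eif2ak3) are released from the chaperone BiP. IRE1 splices the Xbp1 mRNA and ATF6 is cut to a free transcription factor, and both raise genes of ER folding and degradation. PERK phosphorylates the initiation factor eIF2, which slows protein synthesis in general but favours translation of the Atf4 mRNA. Other kinases that sense amino acid shortage, viral RNA or lack of haem converge on eIF2 too, and this shared part is the integrated stress response. ATF4 then raises genes of amino acid uptake, amino acid synthesis and tRNA charging together with Ddit3, Trib3 and Chac1. In rapidly dividing ESCs these genes are active without added stress.

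ER chaperones and ATF4 targets are known to be driven through different DNA elements, and the promoter stretches that hold them are shown to set these groups of genes apart by sequence. RefSeq promoter windows (GRCm38.p6, 250 bases before to 50 bases after the transcript start) were searched on both strands for the ER stress response element (CCAAT, 9 bases of any kind, then CCACG) and for TGATGNAA, a core of the composite element bound by ATF4 with C/EBP factors. All 10 genes had a window. The ER stress response element was found in Hspa5 and Hsp90b1, and in 0.119% of all 32851 windows. TGATGNAA was found in Chac1, Asns, Herpud1 and Trib3, and in 3.97% of all windows, and in Chac1 and Herpud1 it read TGATGCAA, found in 0.895% of windows. Neither was found in the windows of Xbp1, Atf4, Ddit3 and Ddit4, and the match in Trib3 lay 14 bases after the start and is not printed. In the stretches below, written 5′ to 3′ along the gene's strand, capitals mark the fixed letters of the ER stress response element and all letters of the TGATGNAA matches. A match to these letters is a description of the sequence and not of a bound factor.
Hspa5, chr2:34772000-34772068, plus strand, ER stress response element: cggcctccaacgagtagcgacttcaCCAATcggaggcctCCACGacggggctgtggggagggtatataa
Hsp90b1, chr10:86705508-86705681, minus strand, ER stress response element in both orientations: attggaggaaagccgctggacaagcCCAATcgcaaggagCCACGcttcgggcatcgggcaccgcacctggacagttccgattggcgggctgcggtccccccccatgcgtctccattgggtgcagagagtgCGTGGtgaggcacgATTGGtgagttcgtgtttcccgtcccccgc
Chac1, chr2:119351024-119351081, plus strand, reversed TGATGCAA: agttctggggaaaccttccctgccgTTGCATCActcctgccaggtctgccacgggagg
Asns, chr6:7693210-7693257, minus strand, TGATGAAA: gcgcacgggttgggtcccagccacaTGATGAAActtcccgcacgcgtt
Herpud1, chr8:94386292-94386349, plus strand, reversed TGATGCAA: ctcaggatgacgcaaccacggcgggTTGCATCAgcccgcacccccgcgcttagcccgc

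Both solvent libraries held the ESC markers Pou5f1 and Sox2 at values from 0.727 to 3.35, whereas the summed values of 12 feeder fibroblast markers made up 0.0144% to 0.0152% of all values with solvent and 0.0205% to 0.0261% with MS-275. The values are a normalized signal made by the authors with Genomatix and not counts. Replicates 1 and 2 differed in range: the largest value in replicate 1 was 1.63 (solvent) and 1.43 (MS-275), and in replicate 2 it was 34.1 and 47.1. Differences between genes of high value were therefore small in replicate 1, and each gene is given in all 4 libraries. Log2 fold changes were fitted with limma on log2(value + 0.005) over the 20336 genes that reached 0.001 in 2 or more libraries, and p-values were adjusted by the Benjamini-Hochberg method over all of them. The fit compared the group means. A second fit added the replicate number as a block, since same-numbered libraries deviated together. With so few libraries it takes the spread of a gene largely from other genes of similar value. Its standard errors can therefore be smaller than the gene's own pairs would give. Without the block 0 of the 10 genes passed an adjusted p of 0.05 and over all genes 0.00492% passed as higher and 0 as lower. At an unadjusted p under 0.05, 1 of the 10 was lower (Trib3) and 0 higher, against 2.77% and 14.6% of all genes. With the block 1 of the 10 genes was higher and 2 were lower, against 21.0% higher and 6.46% lower (27.5% in all) among all genes tested. With median-ratio scaling added 5 of the 10 passed (30.2% of all genes), and with quantile normalization added 4 of the 10 (29.0%). Within the replicate pairs 3 of the 10 were higher in both, 5 lower in both and 2 of opposite sign, against 50.0%, 26.5% and 22.9% of all genes.

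**Figure D1:**
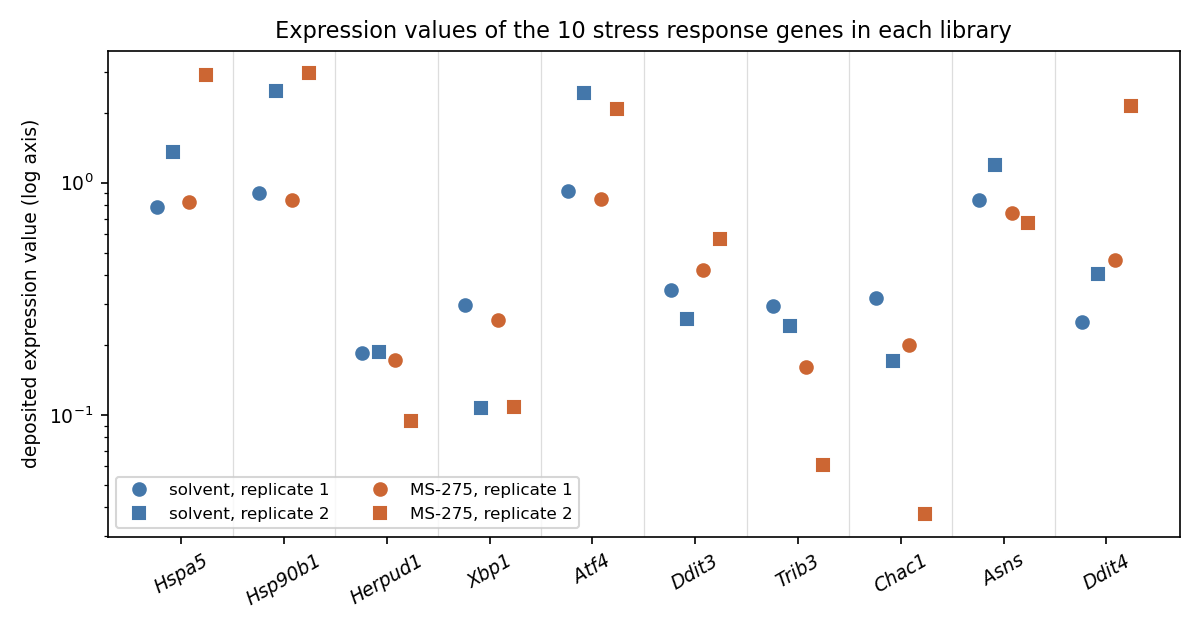
Deposited expression value (log axis, no unit) of each of the 10 genes in the 4 libraries. Blue marks solvent, orange MS-275, circles replicate 1 and squares replicate 2. The MS-275 values of Ddit4 and Ddit3 lie above both solvent values and those of Trib3, Asns and Herpud1 below, while the values of Atf4 and Hsp90b1 separate by replicate and not by treatment.

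Ddit4 (REDD1), which restrains mTORC1 under stress, showed the largest rise of the 10. Its value was 0.251 and 0.404 in solvent replicates 1 and 2 and 0.463 and 2.13 in MS-275 replicates 1 and 2. Both treated values lay above both solvent values, as they did for 32.3% of all genes tested. The solvent mean was 0.327 ± 0.109 (SD, n = 2), the MS-275 mean 1.30 ± 1.18 (SD, n = 2), and the value was 1.85 times higher in replicate pair 1 and 5.27 times higher in pair 2. The log2 fold change of 1.63 passed in the fit with the block (limma adjusted p = 0.00139, standard error 0.319) but not in the one without (0.294). The pairs, at 0.87 and 2.38 on the log2 scale, both lay outside the 95% interval with the block (0.95 to 2.30). In bulk RNA a change in the share of cells that express a gene and a change in its RNA per cell cannot be told apart.

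Ddit3 encodes CHOP, a C/EBP-family factor that is low in unstressed cells and favours cell death when the stress persists. Its value was 0.344 and 0.260 in solvent replicates 1 and 2 and 0.421 and 0.573 in MS-275 replicates 1 and 2, so the groups did not overlap. The log2 fold change was 0.71, and with the block the adjusted p was 0.0509 (95% interval of the log2 fold change 0.16 to 1.25), so that Ddit3 did not pass. Under the block it passed after quantile normalization (adjusted p = 0.00549), while median-ratio scaling gave a smaller 0.43 that did not pass (adjusted p = 0.201).

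Trib3 and Chac1 fell. Trib3 is a pseudokinase that binds ATF4 and CHOP and dampens their activity. Its value was 0.294 and 0.242 in solvent replicates 1 and 2 and 0.160 and 0.0607 in MS-275 replicates 1 and 2. All treated values lay below the solvent values, as for 12.0% of the genes tested. Solvent libraries averaged 0.268 ± 0.0370 and MS-275 libraries 0.111 ± 0.0706 (SD, n = 2 per group). The fitted log2 fold change, -1.38, had a limma adjusted p of 0.000889 under the block (standard error 0.255) and of 0.171 otherwise. Chac1, an enzyme that degrades glutathione and is raised by ATF4, had values of 0.319 and 0.171 with solvent and 0.199 and 0.0373 with MS-275. The groups overlapped because the replicates differed, but the value was lower within both pairs, at 0.625 and 0.218 times the solvent value. For Chac1 the fit gave -1.36 on the log2 scale, with a limma adjusted p of 0.00200 under the block (standard error 0.280) and of 0.345 otherwise. The Chac1 pairs, at -0.67 and -2.06 on the log2 scale, both lay outside the 95% interval with the block (-1.96 to -0.77).

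Asns, the asparagine synthetase whose promoter is a standard example of ATF4 control, was lower in both pairs without passing. Its value was 0.839 and 1.20 with solvent and 0.740 and 0.670 with MS-275 (replicates 1 and 2), and the groups did not overlap. The log2 fold change was -0.51 (adjusted p = 0.230 with the block, 95% interval -1.14 to 0.13). Herpud1, a membrane protein of the ER degradation machinery, showed the same order, with 0.184 and 0.187 with solvent and 0.173 and 0.0938 with MS-275. The fit for Herpud1 gave -0.53 on the log2 scale (adjusted p = 0.122 with the block, 95% interval -1.04 to -0.00749 before adjustment). After median-ratio scaling with the block both passed as lower (adjusted p = 0.0448 for Asns and 0.0141 for Herpud1), and after quantile normalization with the block neither did (0.115 and 0.0545).

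Atf4 itself did not pass. Its value was 0.923 with solvent and 0.852 with MS-275 in replicate 1, and 2.43 and 2.07 in replicate 2. The log2 fold change was -0.17 (adjusted p = 0.759 with the block, 95% interval -0.92 to 0.58). ATF4 is controlled largely at translation, which these libraries do not measure. Xbp1 in replicate 1 stood at 0.298 (solvent) and 0.257 (MS-275), and in replicate 2 at 0.108 in both (log2 fold change -0.10, adjusted p = 0.768 with the block). The spliced and unspliced forms of Xbp1 were not analysed here.

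The ER chaperones were among the genes of highest value. Hspa5 (BiP), the main HSP70 chaperone of the ER and the keeper of its stress sensors, stood in replicate 1 at 0.786 (solvent) and 0.826 (MS-275), and in replicate 2 at 1.35 and 2.90. Its value was thus 1.05 times the solvent value in pair 1 and 2.15 times in pair 2. Neither fit called the log2 fold change of 0.58 (adjusted p = 0.873, or 0.249 under the block with a 95% interval of -0.18 to 1.35). In replicate 1, where the pair differed little, Hspa5 ranked 94 with solvent and 45 with MS-275 among the 28250 genes. Its ranks in replicate 2 were 412 and 192. Hsp90b1 (GRP94), the HSP90 chaperone of the ER, had 0.903 and 0.842 in replicate 1 and 2.48 and 2.97 in replicate 2 (solvent and MS-275). Its pairs had opposite signs and its log2 fold change of 0.0793 did not pass (adjusted p = 0.900 with the block). After median-ratio scaling its sign turned (-0.21), as it did after quantile normalization (-0.0505). Scaling also shifted the centre of all genes, whose median log2 fold change was 0.20 as deposited, -0.0123 by median ratio and -0.0324 by quantiles.

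**Figure D2:**
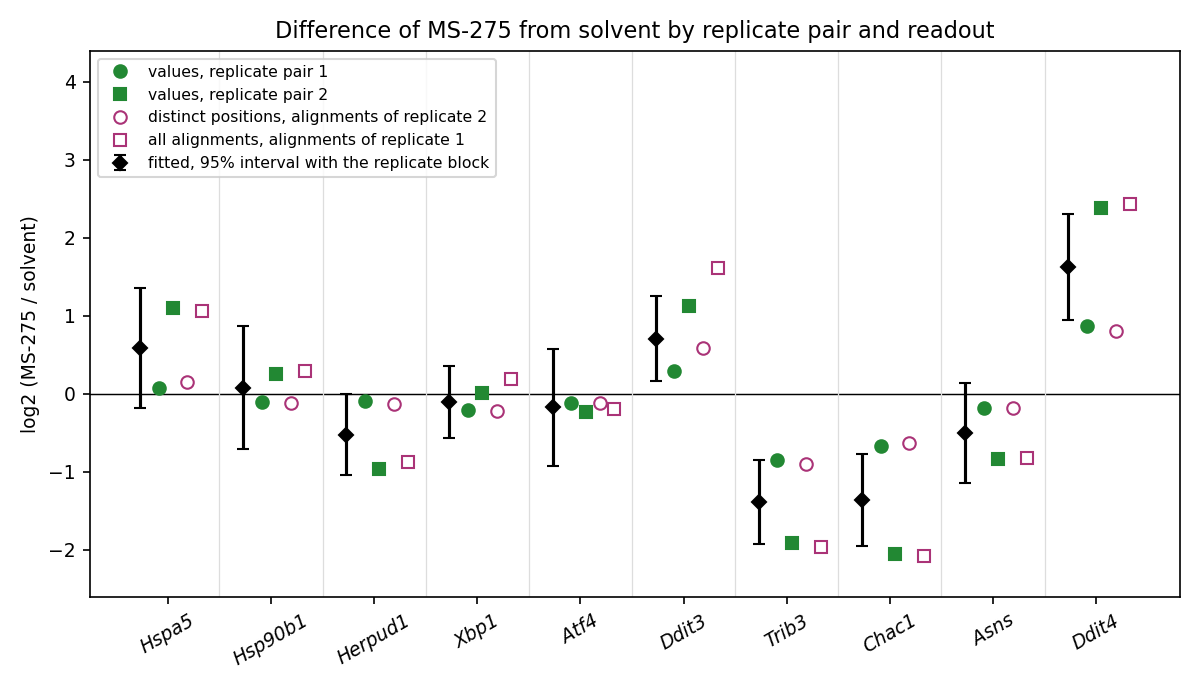
Log2 ratio of MS-275 to solvent for each gene. Diamonds show the fitted log2 fold change on log2(value + 0.005) with its 95% interval from the fit with the replicate block, filled symbols the ratio within each replicate pair of the values, and open symbols ratios counted from the deposited alignments. The intervals of Ddit4, Trib3 and Chac1 lie farthest from 0, and the open symbols lie close to the filled ones of the same shape for most genes.

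The deposited alignments gave a count for each gene and its position along the gene. They were counted on exons of GENCODE M1 genes on mm9, with a position and strand counted once (distinct positions). The 4 alignment sets held 9785619 to 23467935 alignments of 35 bases. In those deposited with replicate 1 of solvent and MS-275, 53.2% and 54.4% of the alignments repeated a position, and in those deposited with replicate 2 none did. For the 10 genes the ratios of the values in pair 2 lay near those of all alignments deposited with replicate 1. Ddit4 was 5.27 times higher by the values of pair 2 and 5.41 times by these alignments, Chac1 was at 0.218 and 0.236 times, and Trib3 at 0.251 and 0.257 times. Ddit3 was an exception, at 2.20 and 3.07 times. The ratios of pair 1 likewise lay near those of the alignments deposited with replicate 2 (Trib3 -0.85 and -0.90, Chac1 -0.67 and -0.63 and Ddit4 0.87 and 0.80 on the log2 scale), again with a wider gap for Ddit3 (0.29 and 0.59). The authors' own names call the values of replicate 1 old and the alignments deposited with replicate 2 old. By distinct positions of the alignments deposited with replicate 1 the log2 ratios were -1.60 for Trib3, -1.76 for Chac1 and 1.23 for Ddit4, away from those of pair 1. Whether replicates were exchanged between values and alignments, or repeated positions handled differently, was not tested. Replicate numbers of alignments below are those they were deposited with, and need not match those of the values. The alignments are from the same libraries as the values and are no independent measurement.

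Per kilobase of exon and 1000000 distinct positions, the order of the levels with solvent was led by Atf4 (100.2 and 113 in replicates 1 and 2), followed by Hsp90b1 (84.7 and 88.9), Asns (75.3 and 94.6) and Hspa5 (71.9 and 72.6). The ranges of Hsp90b1 and Asns overlapped. Ddit4 (50.2 and 36.9), Trib3 (36.7 and 40.5) and Chac1 (33.3 and 39.6) came next with overlapping ranges, and Herpud1 (25.8 and 23.0), Ddit3 (21.9 and 26.9) and Xbp1 (14.4 and 26.0) were lowest and overlapped as well. With MS-275 Ddit4 moved to 118 and 64.3 and Chac1 to 9.82 and 25.6.

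Distinct positions can understate differences in genes of high level, since a position counts once however often it is hit. In solvent replicate 1 each distinct position of Hsp90b1 was hit by 7.16 alignments on average, of Atf4 by 6.75, and of Ddit3 by 1.37. For Ddit4 this number rose from 2.74 with solvent to 6.46 with MS-275, and the log2 ratio in these 2 sets was 2.43 by all alignments and 1.23 by distinct positions. In these sets 17.5% and 33.3% of the possible positions of Ddit4 were occupied. Why positions repeated was not tested.

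By limma-voom on distinct positions, Trib3 (log2 fold change -1.21, adjusted p = 0.0209) and Ddit3 (0.79, adjusted p = 0.0327) passed without a block, where 15.1% of the 17060 genes tested passed as higher and 5.04% as lower (20.1% in all). With the block Hspa5 (0.38, adjusted p = 0.0105), Ddit3 (0.78, adjusted p = 0.000533) and Ddit4 (1.04, adjusted p = 3.39e-06) passed as higher, and Trib3 (-1.20, adjusted p = 9.31e-06) and Chac1 (-1.07, adjusted p = 0.000239) as lower. Over all genes 29.6% passed as higher and 13.7% as lower in that fit (43.3% in all). Asns (-0.25, adjusted p = 0.0764) and Herpud1 (-0.40, adjusted p = 0.0702) did not pass.

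In Trib3, Asns, Chac1, Ddit4 and Hspa5 all exon blocks compared differed in the same direction, and in the other genes they did not. Blocks of a gene come from the same libraries and are no separate measurements, and blocks of genes other than the 10 were not compared. Exons of all annotated transcripts were merged into blocks, and blocks with at least 10 distinct positions in solvent or MS-275 of each replicate were compared. In Trib3 (chromosome 2 of mm9, 152163158 to 152169768) 4 of 4 blocks were lower with MS-275 in both alignment pairs, in Asns (chromosome 6, 7625169 to 7643254) 11 of 11 and in Chac1 (chromosome 2, 119176965 to 119180117) 2 of 2. In Ddit4 (chromosome 10, 59412423 to 59414518) 3 of 3 blocks were higher in both pairs, in Hspa5 (chromosome 2, 34627490 to 34632051) 6 of 6 and in Ddit3 (chromosome 10, 126727830 to 126733344) 3 of 4. In Hspa5 the first block showed the largest log2 ratio in both pairs (0.96 and 0.72), above the 0.40 to 0.67 and 0.0502 to 0.53 of the other blocks. Hsp90b1 (chromosome 10, 86152954 to 86168254) had 16 blocks, and 2 were higher in both pairs and 0 lower. In Herpud1 (chromosome 8, 96910338 to 96919277) 1 of 7 blocks was higher in both pairs and 3 were lower, and in Xbp1 (chromosome 11, 5420662 to 5425896) 1 of 4 was higher and 1 lower. In Atf4 (chromosome 15, 80085614 to 80087970) 1 of 3 was lower and 0 higher.

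**Figure D3:**
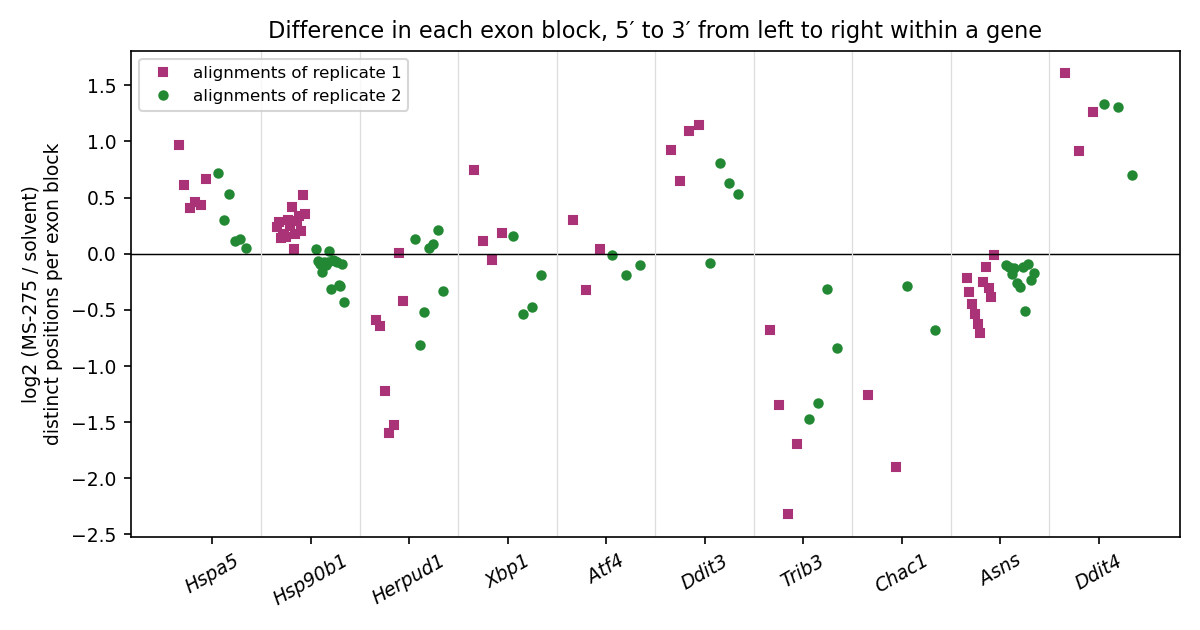
Log2 ratio of MS-275 to solvent in distinct alignment positions for each merged exon block with at least 10 positions, in 5′ to 3′ order within a gene. Squares are the alignments deposited with replicate 1 and circles those deposited with replicate 2. The blocks of Ddit4 and Hspa5 lie above 0 in both sets and those of Trib3, Chac1 and Asns below 0, whereas the blocks of Hsp90b1 lie above 0 in one set and mostly below 0 in the other.

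Positions inside introns, which come from unspliced RNA or from other transcripts of the region, were counted too. Asns had 970 and 881 intronic positions with solvent (replicates 1 and 2) and 234 and 530 with MS-275, which is a log2 ratio of -1.75 and -0.89 per 1000000 distinct positions. The ratios of its exons were -0.34 and -0.19 in distinct positions, and -0.82 by all alignments in the sets of replicate 1. Introns were counted in distinct positions only. The intronic positions of Trib3 changed from 162 and 105 to 55 and 73 (log2 ratio -1.26 and -0.68), and those of Ddit3 from 243 and 155 to 363 and 355 (0.88 and 1.04). Ddit4 had 4 and 1 intronic positions with solvent and 27 and 4 with MS-275, too few in the solvent sets to set a ratio firmly. Hspa5 differed between the pairs, with 36 and 27 positions with solvent and 75 and 26 with MS-275. The preparation did not keep the strand. Ddit3 shares 68 bases with Mars on the other strand, and exon bases shared by coding genes were left out.

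The other genes of both responses were taken from 8 lists of pathway genes, drawn up by function. Of their 135 genes other than the 10, 131 were tested. Without the block 0 passed. With the block 14 were higher and 20 lower, where 21.0% and 6.46% of all genes were, and after median-ratio scaling with the block 3 were higher and 36 lower, where 16.4% and 13.8% of all genes were. The counts of each list below are to be read against the same shares. By the fitted log2 fold change the lists of ER folding and of amino acid supply lay on opposite sides of the median of all genes, which was 0.20. For ER folding this held in pair 2 only. Its median was 0.126 in pair 1, near the 0.131 of all genes, and 0.618 in pair 2, against 0.239.

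Among 24 ER chaperones and folding enzymes, 7 passed as higher with the block, 0 as lower and 17 did not pass, a share of higher calls near the 21.0% of all genes. The median log2 fold change was 0.35, and 15 genes were higher in both replicate pairs and 0 lower, against 50.0% and 26.5% of all genes tested. Ero1l, the oxidase that recharges disulfide isomerases, had values of 0.192 and 0.236 with solvent and 0.242 and 0.821 with MS-275 (log2 fold change 1.05, adjusted p = 0.0132 with the block). Its paralog Ero1lb rose from 0.0152 and 0.00910 to 0.0359 and 0.0230 (adjusted p = 0.0236), a call lost with median-ratio scaling (0.0623) and with quantile normalization (0.262). The other 5 that passed were Manf, Creld2, Sdf2l1, Pdia5 and Sil1, chosen for naming after their values were seen. Manf, a secreted ER stress protein, was at 0.96, Creld2 at 0.82 and Sdf2l1, a cofactor of BiP, at 0.81. With median-ratio scaling and the block 1 of the 24 passed as higher, where 16.4% of all genes did, so the count of this list depends on the scaling. Genes whose GENCODE M1 coding sequence ends in the KDEL signal for retention in the ER numbered 12 of 22594, Hspa5 and Hsp90b1 among them. The other 10 were all tested, with a median of 0.34. Of these, 8 were higher in both pairs and 1 passed with the block, Edem3 (0.70, adjusted p = 0.0432), which trims mannose from misfolded glycoproteins. With median-ratio scaling Edem3 did not pass (0.42, adjusted p = 0.197).

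Among 19 tested genes of ER-associated degradation, 1 passed with the block, Edem3, and the median was 0.0856. Syvn1, the ubiquitin ligase that Herpud1 works with, had a log2 fold change of 0.53 (adjusted p = 0.109), and Ube2j1, a ubiquitin-conjugating enzyme of the ER, one of -0.65 (adjusted p = 0.0648).

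Of 16 tested sensors and transcription factors, 4 passed as higher and 2 as lower with the block, against 21.0% and 6.46% of all genes. Their median was 0.38, and 13 were higher in both pairs and 2 lower, against 50.0% and 26.5% of all genes. With either scaling added, 1 passed as higher and 2 as lower. Ern1 (IRE1) was at 0.0628 and 0.0185 with solvent and 0.0960 and 0.0556 with MS-275 (log2 fold change 0.97, adjusted p = 0.0184). Creb3l3, a factor related to ATF6, had low values near the pseudocount of 0.005. They were 0.0106 and 0.00620 with solvent and 0.0276 and 0.0149 with MS-275 (log2 fold change 0.95, adjusted p = 0.0304). Neither passed with median-ratio scaling (0.0577 for Ern1 and 0.0710 for Creb3l3) or quantile normalization (0.0537 and 0.364). Cebpg, a partner of ATF4 on composite elements, fell from 0.319 and 0.316 to 0.180 and 0.182 (log2 fold change -0.79, adjusted p = 0.0139). Nfe2l2 (NRF2), the regulator of the oxidative stress response, fell by 0.65 on the log2 scale (adjusted p = 0.0458). The 15 tested genes of the eIF2 kinases, eIF2, eIF2B and their regulators had a median of 0.20. Ppp1r15a (GADD34), which directs the phosphatase to eIF2 and is a target of ATF4 and CHOP, rose by 0.78 (adjusted p = 0.0374), but with median-ratio scaling it was at 0.50 and did not pass (adjusted p = 0.131). Its constitutive counterpart Ppp1r15b was at -0.72 (adjusted p = 0.0527). Impact, an inhibitor of the kinase GCN2, fell by 0.88 (adjusted p = 0.0216), and Eif2ak3 (PERK) was at 0.40 (adjusted p = 0.193).

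**Figure D4:**
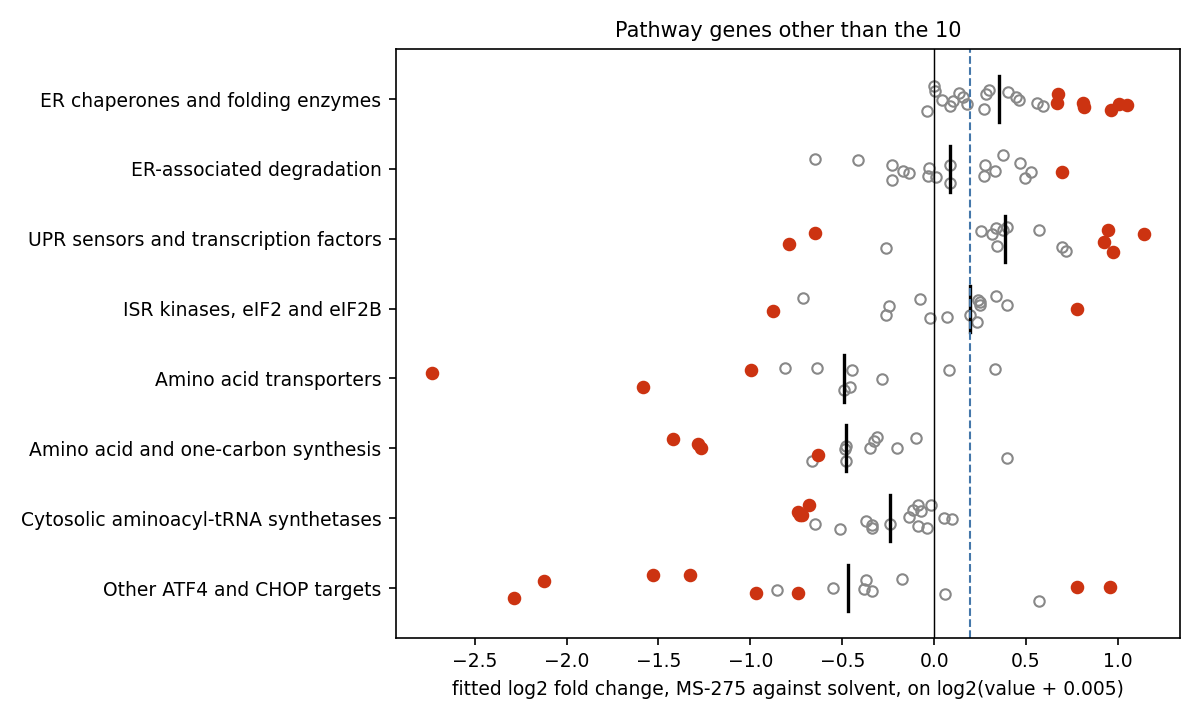
Fitted log2 fold change of each tested pathway gene other than the 10, by list. Filled red circles passed an adjusted p of 0.05 with the replicate block and open circles did not. Black bars are list medians and the dashed line is the median of all genes tested, 0.20. The medians of the transporter, synthesis, tRNA synthetase and other target lists lie below 0. Those of the ER chaperones and of the sensors and transcription factors lie at 0.35 and 0.38.

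The lists of amino acid supply had medians below 0. Of 11 amino acid transporters 3 fell with the block and 0 rose, and 8 were lower in both pairs (median -0.49). Slc7a3, a carrier of arginine and lysine, had values of 0.504 and 0.707 with solvent and 0.148 and 0.0486 with MS-275. The fit gave -2.73 on the log2 scale, with an adjusted p of 3.30e-05 under the block and of 0.0587 otherwise. The glycine carrier Slc6a9 fell by 1.58 (adjusted p = 0.00119 with the block), and Slc1a5, a glutamine carrier, was at 0.33 (adjusted p = 0.321). Of 14 genes of amino acid and one-carbon synthesis 4 fell and 0 rose, and 10 were lower in both pairs (median -0.48). Pck2, the mitochondrial PEP carboxykinase, was at 0.290 and 0.127 with solvent and 0.118 and 0.0390 with MS-275 (log2 fold change -1.42, adjusted p = 0.000298 with the block), and Mthfd1l of the mitochondrial folate pathway fell by 1.28 (adjusted p = 0.00114). Cbs, of the transsulfuration pathway, was at 0.40 (adjusted p = 0.208).

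Of 19 cytosolic aminoacyl-tRNA synthetases 4 fell and 0 rose with the block. In both pairs 13 were lower and 0 higher (median -0.24). The leucine enzyme Lars was at 0.625 and 0.863 with solvent and 0.461 and 0.414 with MS-275 (log2 fold change -0.74, adjusted p = 0.0498), and the valine enzyme Vars fell by 0.73 (adjusted p = 0.0281). With median-ratio scaling and the block, 7 of the transporters, 7 of the synthesis genes and 7 of the synthetases passed as lower, where 13.8% of all genes did.

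Of the 16 other ATF4 and CHOP targets 6 fell and 2 rose with the block, against 6.46% lower and 21.0% higher among all genes, and 11 were lower in both pairs (median -0.47). Nupr1, a small stress-induced chromatin protein, had values of 0.478 and 0.731 with solvent and 0.0999 and 0.138 with MS-275. The fit gave -2.28 on the log2 scale, with a limma adjusted p of 5.21e-06 under the block and of 0.0581 otherwise. Jdp2, an AP-1 family repressor, fell by 2.12 (adjusted p = 7.06e-05 with the block). Ndrg1, which is also raised by hypoxia, rose by 0.96 (adjusted p = 0.00771), and Ppp1r15a, also counted above, was the other that rose. Among the genes with TGATGNAA in their RefSeq window, leaving out the 10, 397 were tested, and with the block 78 were higher and 45 lower, where 21.0% and 6.46% of all genes were. Their median was 0.18, near the 0.20 of all genes. Of the 22 tested genes with an ER stress response element other than the 10, 3 were higher and 2 lower.

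Markers of other cell types were measured in the same libraries. Of 12 feeder fibroblast markers 5 were higher with the block and 0 lower, against 21.0% and 6.46% of all genes, with Col1a1 at 0.0146 and 0.0101 with solvent and 0.0681 and 0.110 with MS-275, and Col1a2 at 0.0810 and 0.0883 and 0.153 and 0.216. In both pairs 7 were higher and 3 lower. The 3 were Col3a1 (-0.52), Dcn (-0.72) and Prrx1 (-0.36), named after their values were seen, which passed as lower after quantile normalization with the block (adjusted p = 0.0153, 0.00650 and 0.0185). Of 10 endoderm markers 2 were higher with the block, a share near the 21.0% of all genes. In both pairs 9 of them were higher and 1, Sparc, was lower, against 50.0% and 26.5% of all genes (median log2 fold change 0.44). Sox17 was at 0.00686 and 0.00113 with solvent and 0.0230 and 0.0115 with MS-275, and Gata6 was between 0.00167 and 0.0120 in the 4 libraries. The summed values of the 10 endoderm markers made up 0.0326% and 0.0124% of the total with solvent and 0.0354% and 0.00798% with MS-275. Most of these sums came from Sparc, at 0.483 and 0.378 with solvent and 0.383 and 0.225 with MS-275. Of 10 ESC markers 4 were lower with the block, against 6.46% of all genes, Pou5f1 among them (log2 fold change -0.95, adjusted p = 0.0473). All 10 were lower in both pairs, against 26.5% of all genes (median -0.65). The part of these cells in the differences of the stress genes was not tested.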

How the data were processed

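Poly(A) RNA of TBV2 ESCs was sequenced by the submitters on an Illumina GAIIx, and reads were mapped to mm9 (the aligner is not given in the sources used here). The authors deposited a normalized expression signal per gene made with Genomatix, whose formula is not given in the sources used here, and the alignments. Tables with the authors' ratios, which hold 4 columns of per-library values, and their shorter tables were not used. The preparation (random-hexamer, double-stranded cDNA) does not keep the strand. Groups and replicates followed the deposited titles.

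The 10 genes, the lists and the promoter motifs were chosen with earlier results of these data known. Signal values were tested with limma 3.58.1 (R 4.3.3, lmFit and eBayes with a trend, 2-sided), with a pseudocount of 0.005. Deviations from the group means correlated at 0.764 between same-numbered libraries for the values (20336 genes) and at 0.517 for distinct positions (17060 genes). The authors' headers call replicate 1 of both groups old, so these were treated as pairs in the fits with a block. Fold changes on log2(value + 0.005) understate those of low genes.

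Distinct positions were counted by the alignment midpoint with Python 3.11.15, pyarrow 21.0.0, numpy 2.4.6 and pandas 2.3.3, and limma-voom was run on genes reaching 10 positions in 2 or more libraries. Steps were tested on simulated data. Of the listed symbols, 172 matched as written, 1 through the Entrez identifier, and 4 were not found. RefSeq protein sequences were not used, so the KDEL genes come from GENCODE M1 transcripts.

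From each list, the text names up to 2 genes that rose most and 2 that fell most by fitted log2 fold change, given a mean of 0.01 or more and one direction in both pairs; all 10 genes and a few marker genes are named too, and any other gene was chosen after its values were seen. A gene that this rule names is not reported here. Alternatives were other pseudocounts, filters, scalings and tests, the block, each library left out, and the alignment counts.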

Additional observations from a re-analysis of the deposited data

How the results depend on the processing

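Counts depended on the replicate block and on the scaling. Among the 10 genes, higher and lower counts were 0 and 0 without a block, and also with pseudocounts of 0.001 or 0.02, no filter, a mean of at least 0.01, either scaling or no trend. They were 1 and 2 with the block, 1 and 4 with the block and median-ratio scaling, 2 and 2 with the block and quantile normalization, 1 and 1 by limma-voom on distinct positions, 3 and 2 by limma-voom with the block, and 2 and 2 on all alignments with the block. Trib3, Chac1 and Ddit4 passed in all 5 fits with a block, Ddit3 in 3, and Hspa5, Asns and Herpud1 in 1 each. For the 131 pathway genes the counts of higher and lower were 14 and 20 with the block, 3 and 36 with median-ratio scaling added, 10 and 33 with quantile normalization added, 6 and 17 by limma-voom, 26 and 41 by limma-voom with the block and 17 and 28 on all alignments, and 0 and 2 with a mean of at least 0.01. Over all genes, 1 was higher in the fit without a block and 0 with the other pseudocounts, no filter, either scaling or no trend. The counts were 466 and 65 with a mean of at least 0.01, 4277 and 1314 with the block, 3344 and 2806 and 2936 and 2961 with each scaling added, 2574 and 859 by limma-voom, 5052 and 2341 by limma-voom with the block, and 4551 and 1779 on all alignments. The cause of these shifts was not tested.

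Without the block and with each library left out in turn, the lone library of a group is assumed to vary like the others, and the replicates are unbalanced between the groups. Counts over all genes then ranged from 0 to 160 higher and 0 to 29 lower, and over the pathway genes from 0 to 2 lower. The log2 fold change of Ddit4 ranged from 0.53 to 2.72, of Ddit3 from 0.49 to 0.93, of Trib3 from -2.05 to -0.72 and of Chac1 from -2.50 to -0.23. Asns ranged from -0.76 to -0.25 and Herpud1 from -0.95 to -0.10. The signs of Hspa5 (-0.32 to 1.49), Hsp90b1 (-0.83 to 0.99), Xbp1 (-0.82 to 0.61) and Atf4 (-0.87 to 0.53) turned. Hsp90b1 also turned with either scaling, with and without the block (-0.21 and -0.0505), and Xbp1 by limma-voom without a block (0.0224). The number of alignments behind a single deposited value is unknown.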
